A study of Mus musculus with 6 samples.

Results

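Ribosome biogenesis was followed through 45 genes of the nucleolus and of pre-ribosome maturation in mouse retinal ganglion cells (RGCs), the neurons whose axons form the optic nerve. The genes were listed by name for their known roles, with no threshold on a measured value, and were looked up by symbol among the 17027 gene symbols of the deposited isoform table. All 45 were found, and all 45 were among the 14390 genes with a mean of at least 1 FPKM over the 6 libraries, so none was lost to the filter on low values. FPKM (fragment counts scaled by transcript length and by the library's total) were summed over the isoforms of each gene. Because FPKM are scaled by transcript length, levels can be set side by side between genes.

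The groups were wild-type C57/6NCrl mice at 3 ages with 2 libraries each: 8 weeks (Adult), postnatal day 5 (P5) and embryonic day 18 (E18). RGCs were taken by binding to an antibody against Thy1, a surface protein of these neurons, after macrophages had been removed. The sample protocol also names the removal of amacrine cells, and the series description does not. PolyA-selected RNA was sequenced as paired reads of 100 bases. The P5 libraries are called a and b because their columns share one header. The labels do not say whether both libraries of an age stem from different animals, so each p-value reflects the scatter of these samples alone, which may be technical.

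Ribosomes are assembled in the nucleolus. RNA polymerase I transcribes the ribosomal RNA precursor, and small nucleolar ribonucleoproteins (snoRNPs) guide its methylation and pseudouridylation. The small subunit processome folds and cleaves the precursor of the small subunit, a separate set of factors builds the large subunit, and both pre-subunits are exported and finished in the cytoplasm. Neurons do not divide, yet growing and mature neurons keep making ribosomes to sustain protein synthesis in the cell body and axon.

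The members spanned a wide range of levels. Averaged over the 6 libraries, Npm1 (nucleophosmin, an abundant nucleolar chaperone) was highest at 123.4 FPKM, followed by Rrp1 (a large subunit assembly factor) at 96.3 FPKM, Nop56 (a box C/D snoRNP scaffold) at 70.4 FPKM and Rrn3 at 47.4 FPKM. Rrp12 (an export factor) and Utp20 (a processome component) were lowest, at 4.52 and 4.14 FPKM. The order within a role was therefore steep, and 32 of the 45 members averaged at least 10 FPKM. Libraries of one age lay close together. The median gap between them over the members was 0.06 log2 units at E18, 0.17 at P5 and 0.12 in Adult on the log2(FPKM + 1) scale. The largest gaps were those of Gar1 at E18 (0.70), Ltv1 at P5 (0.71) and Wdr75 in Adult (0.58).

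The members changed little between E18 and P5 and many were lower in Adult. With limma's moderated test, adjusted by Benjamini-Hochberg over all tested genes and called at an adjusted p under 0.05, 2 of 45 members fell and 0 rose from E18 to P5. Of all tested genes, 4.95% fell and 5.52% rose in that comparison, so the members' share was near the background. From P5 to Adult, 28 members fell, 0 rose and 17 were not called, where 33.7% of all tested genes fell and 26.2% rose. From E18 to Adult, 31 members fell and 0 rose, beside 34.4% and 25.3% of all tested genes. These 3 comparisons share libraries and are not independent of each other. The median member differed by −0.12 log2 units between E18 and P5, by −0.45 between P5 and Adult and by −0.59 between E18 and Adult. The medians over all tested genes were −0.03, −0.07 and −0.11. Expressed without a test, both Adult libraries lay below both P5 libraries for 32 members, where 43.1% of all tested genes did so, and above them for 3, where 35.6% did. Both P5 values were under both E18 values for 20 members (34.2% of all tested genes) and above them for 10 (29.0%). Both Adult libraries lay below both E18 libraries for 38 members (47.0% of all tested genes) and above them for 2 (37.1%). In all, 33 members were called in at least 1 comparison of ages and 12 in none.

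These counts depended on single libraries and on scaling to different degrees. Leaving out 1 library at a time, the P5 against E18 count of 2 became 0 when E18 replicate 1 or 2 or P5 replicate a was removed. It became 1 when Adult replicate 1 or 2 (leaving Polr1c) or P5 replicate b (leaving Ncl alone) was removed. The Adult against P5 count ranged from 20 to 26, and 19 of its 28 calls held in all 6 such fits. The Adult against E18 count fell from 31 to 18 without E18 replicate 1 and to 20 without E18 replicate 2, and 18 of its calls held in all 6 fits. Rescaling each library to TPM (the same values scaled so that every library has one total) moved the median of all tested genes from P5 to Adult to −0.76. On that scale 44 members and 59.8% of all tested genes fell, and 0 members and 11.9% of all tested genes rose. Relative to the median of all genes, the members' median was −0.41 by TPM and −0.38 as deposited. From E18 to P5 the members' median turned from −0.12 to 0.01 by TPM.

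**Figure D1:**
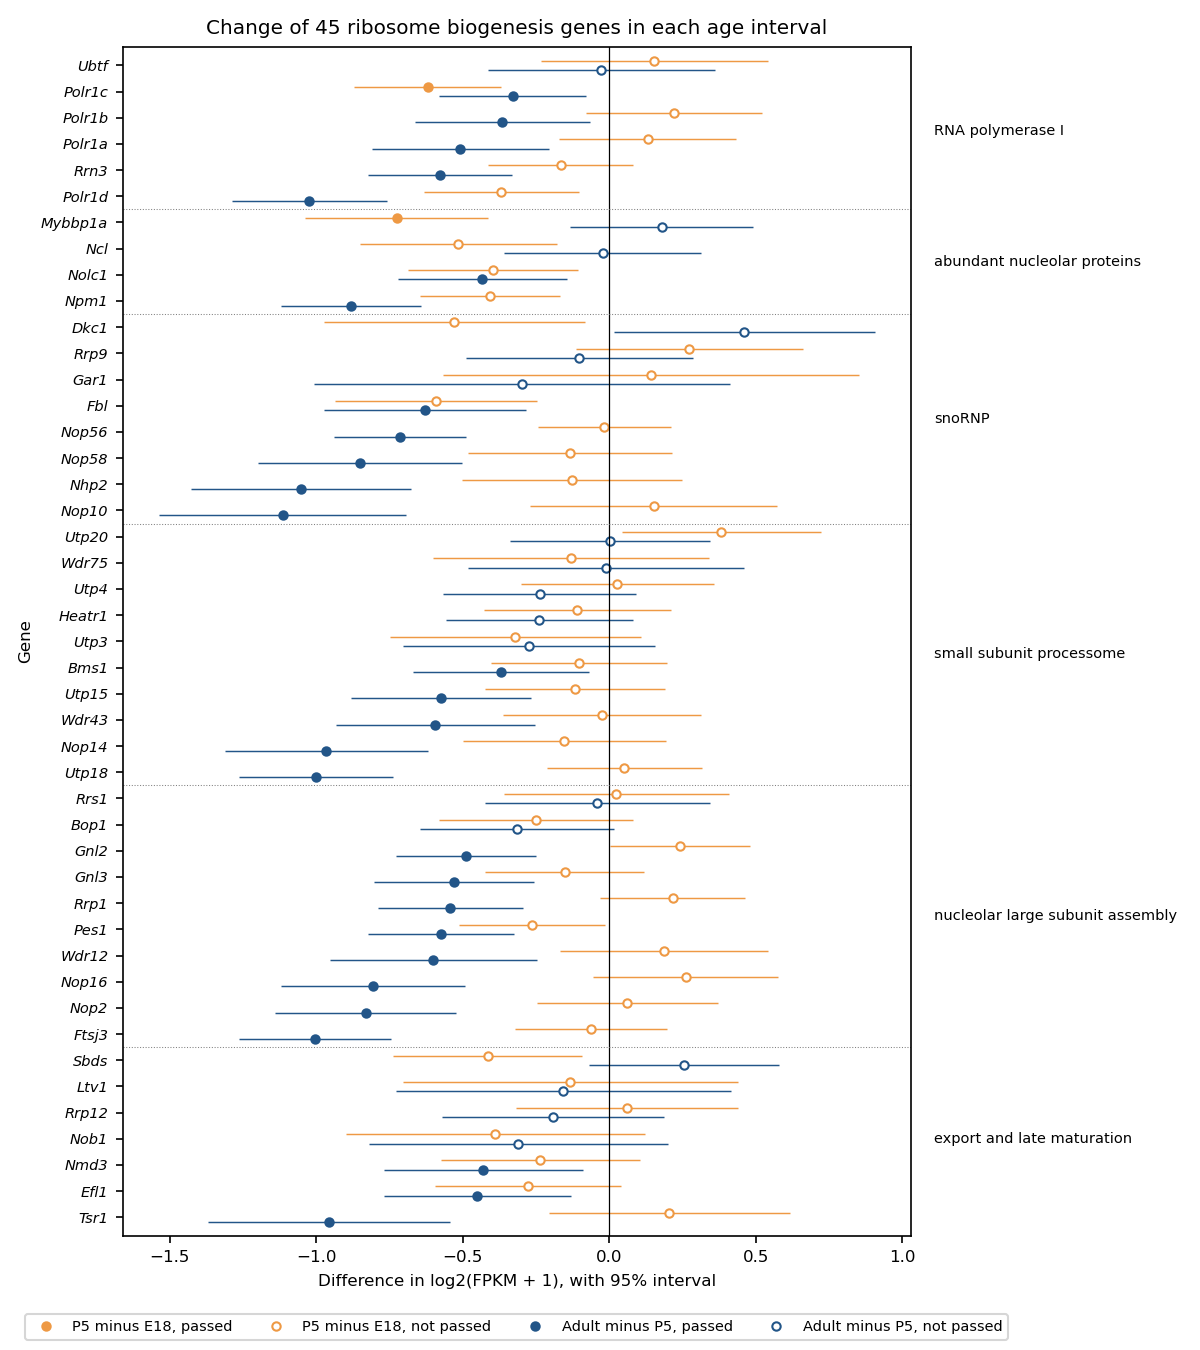
Difference in log2(FPKM + 1) of each of the 45 genes, with its 95% interval from limma, for P5 minus E18 (orange) and Adult minus P5 (blue); filled points passed an adjusted p of 0.05, and dotted lines separate the 6 roles. Filled blue points lie left of 0 for 28 genes, and 2 orange points are filled, those of Polr1c and Mybbp1a.

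Marker mRNA of several retinal cell types changed with age in the panned cells, and this stands beside every comparison with Adult. The summed FPKM of 12 RGC markers was 2770 and 3278 at E18, 3447 and 3098 at P5, then 498 and 291 in Adult, and 12 of 12 fell from P5 to Adult. The sum of 11 rod photoreceptor markers was between 5.73 and 12.2 FPKM in the 4 younger libraries and 3255 and 399 in Adult replicates 1 and 2, and 11 of 11 rose. Markers of amacrine cells (8 of 9 tested), Müller glia and astrocytes (9 of 9), bipolar cells (9 of 9) and cones (7 of 8) also rose. In the younger libraries the rod marker Gnat1 was under 1 FPKM, and in Adult none of the 11 was listed at 0. Markers of microglia and macrophages were mostly outside the table, with 1 of 9 listed. That one, C1qa, was at 0.175 and 0.13 FPKM at E18, listed at 0 in both P5 libraries, and at 1.25 and 0.326 in Adult. Every isoform in the table reached about 1 FPKM in at least 1 library, so absent markers may have been below that level. A gene can also be absent for another reason, and these markers were not tested. Markers of progenitors and neuroblasts summed to 120 FPKM in E18 replicate 1 and 11.9 in E18 replicate 2. They summed to 9.59 and 10.2 FPKM at P5, then 93.25 and 83.3 in Adult. Of 11 tested, 3 rose and 0 fell from P5 to Adult. Cell cycle genes summed to 158 and 79.2 FPKM at E18, 56.0 and 61.7 at P5, then 54.0 and 51.1 in Adult, and of 11 tested 1 fell by P5 relative to E18, 2 in Adult relative to P5 and 3 in Adult relative to E18. The part of these shifts in the members' levels was not tested. The rod sum was 8.17-fold higher in Adult replicate 1 than in replicate 2, and the members' summed FPKM in these libraries was 714 and 686. In bulk RNA, fewer cells of a type and less RNA per cell cannot be told apart.

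The promoters of the members, called or not, were also searched for short motifs. RefSeq promoters (GRCm38.p6, 300 bases around each transcription start) were listed for 38 of the 45 genes. Npm1, Fbl, Bop1, Rrs1, Gnl2, Rrp12 and Sbds were not matched. The E-box CACGTG, a palindrome bound by Myc and related factors, was searched on both strands. It was in the promoters of 11 of 38 members (28.9%), of 12% of the 8999 tested genes with a listed promoter and of 8.09% of all 27025 listed genes. By role it was in 1 of 6 RNA polymerase I genes, 1 of 3 abundant nucleolar protein genes, 0 of 7 snoRNP genes, 4 of 10 processome genes, 2 of 7 large subunit genes and 3 of 5 export genes. No motif searched contains another. The ETS core CCGGAAG, also searched on both strands, was in 36.8% of members, 19.9% of tested genes and 9.93% of all listed genes. GCATGCG (part of the NRF1 site) was in 10.5% of members and 7.65% of tested genes, and AAGATGG (the YY1 core) in 5.26% and 8.62%. Of 31 ribosomal protein genes with a listed promoter, 16.1% held the E-box, 38.7% the ETS core, 12.9% GCATGCG and 9.68% AAGATGG. A match describes letters in this window and is not a binding site. The 4 promoters below with an E-box are those in which it began before the start site. Their genes, in 4 roles, fell from P5 to Adult, where 33.7% of all tested genes fell. The call of Nmd3 was lost in all 6 fits that left out a library. The promoter of Nop10, which had the lowest log2 change of all members from P5 to Adult, held none. Capitals mark CACGTG, and each run is given 5′ to 3′ on the gene's strand. They lie at chr16:13780449-13780748 (+) for Rrn3, chr11:93885717-93886016 (-) for Utp18, chr6:125131633-125131932 (+) for Nop2, chr3:69721805-69722104 (+) for Nmd3 and chr2:112261676-112261975 (+) for Nop10.
Rrn3: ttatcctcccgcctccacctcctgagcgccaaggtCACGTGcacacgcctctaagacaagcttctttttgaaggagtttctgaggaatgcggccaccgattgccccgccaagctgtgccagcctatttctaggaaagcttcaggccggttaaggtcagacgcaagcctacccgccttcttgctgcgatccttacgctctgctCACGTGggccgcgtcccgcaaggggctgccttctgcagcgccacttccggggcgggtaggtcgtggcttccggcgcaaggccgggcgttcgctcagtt
Utp18: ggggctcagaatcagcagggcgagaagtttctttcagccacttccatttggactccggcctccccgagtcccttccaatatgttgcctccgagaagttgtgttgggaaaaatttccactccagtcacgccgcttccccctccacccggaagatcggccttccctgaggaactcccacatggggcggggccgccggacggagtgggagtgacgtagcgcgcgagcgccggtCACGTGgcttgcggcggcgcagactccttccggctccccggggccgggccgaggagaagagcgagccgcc
Nop2: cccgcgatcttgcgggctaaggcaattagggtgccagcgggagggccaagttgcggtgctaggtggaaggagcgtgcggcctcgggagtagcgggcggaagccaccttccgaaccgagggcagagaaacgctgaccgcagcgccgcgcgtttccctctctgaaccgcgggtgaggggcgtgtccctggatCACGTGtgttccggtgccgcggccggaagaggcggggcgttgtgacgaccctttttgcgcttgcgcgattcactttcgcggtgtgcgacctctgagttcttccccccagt
Nmd3: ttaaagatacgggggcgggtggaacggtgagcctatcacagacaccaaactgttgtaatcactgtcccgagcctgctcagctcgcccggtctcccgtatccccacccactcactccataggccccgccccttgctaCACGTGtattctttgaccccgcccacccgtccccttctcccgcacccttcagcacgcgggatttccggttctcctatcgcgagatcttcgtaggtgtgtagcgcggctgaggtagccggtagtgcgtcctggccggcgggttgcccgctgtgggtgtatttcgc
Nop10: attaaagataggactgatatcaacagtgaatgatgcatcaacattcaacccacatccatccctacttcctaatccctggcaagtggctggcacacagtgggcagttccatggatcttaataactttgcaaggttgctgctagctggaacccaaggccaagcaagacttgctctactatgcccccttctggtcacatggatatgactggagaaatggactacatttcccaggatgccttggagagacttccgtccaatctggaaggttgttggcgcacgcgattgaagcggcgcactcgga
Counted from the start site, the first base of the E-box was at −215 and −48 in Rrn3, −20 in Utp18, −60 in Nop2 and −114 in Nmd3. In the remaining members with the E-box it lay after the start. It was at +3 in Pes1, +16 in Utp4, +18 in Wdr43 and +25 in Tsr1. In Ltv1, Utp20 and Mybbp1a it was at +29, +38 and +41. Of these genes, Utp4, Ltv1, Utp20 and Mybbp1a were not called from P5 to Adult. Between P5 and Adult the 11 members with the E-box had a median difference of −0.57 log2 units and 7 fell. The 27 without it had a median of −0.45 and 18 fell. Of all tested genes 33.7% fell, and their median was −0.07. The difference between members with and without the E-box was not tested.

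RNA polymerase I and its factors were represented by 6 genes, of which 5 fell from P5 to Adult, beside 33.7% of all tested genes. Polr1d, a small subunit shared by RNA polymerases I and III, was at 35.6 and 37.8 FPKM at E18, 29.9 and 26.6 at P5, then 13.5 and 13.2 in Adult. Both Adult libraries lay far below the other 4, and the E18 and P5 libraries did not overlap either. From P5 to Adult it was 2.11-fold lower (log2 change −1.02 ± 0.11 SE, limma adjusted p = 0.000481). Polr1c, its partner in both polymerases, was at 31.1 and 30.5 FPKM at E18, 19.3 and 20.2 at P5, then 16.1 and 14.9 in Adult. It was 1 of the 2 members that fell already from E18 to P5, by 0.62 on the log2 scale (SE 0.10, limma adjusted p = 0.0228), a call lost when either library of either of those ages was left out. Its further difference from P5 to Adult was −0.33 ± 0.10 (limma adjusted p = 0.0328), lost without either E18 library, P5 replicate b or Adult replicate 2. Rrn3, the factor that brings the polymerase to the promoter of ribosomal DNA, was at 54.1 and 60.8 FPKM at E18, 50.9 and 51.0 at P5, then 33.2 and 34.4 in Adult. It fell from P5 to Adult by 0.58 on the log2 scale (SE 0.10, limma adjusted p = 0.0035).

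Polr1a and Polr1b are the 2 large catalytic subunits. Polr1a was at 8.01 and 7.98 FPKM at E18, 8.97 and 8.73 at P5, then 6.26 and 5.61 in Adult, and it fell from P5 to Adult by 0.51 (limma adjusted p = 0.0133, lost without Adult replicate 2). Polr1b was at 8.40 in both E18 libraries, 9.48 and 10.5 at P5, then 7.80 and 7.22 in Adult (log2 change from P5 to Adult −0.36, limma adjusted p = 0.042). That call held only without P5 replicate a. Ubtf, the HMG-box protein that coats active ribosomal DNA, was at 30.0 and 31.4 FPKM at E18, 29.2 and 40.1 at P5, then 35.0 and 32.2 in Adult. Its P5 libraries overlapped both other ages, both Adult libraries lay just above both E18 libraries, and it was called in no comparison. From P5 to Adult its log2 difference was −0.03, with a 95% interval of −0.41 to 0.36, and the sign turned under quantile normalization and without P5 replicate b or Adult replicate 2.

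The abundant nucleolar proteins were the role with the lowest median from E18 to P5, at −0.46 log2 units over 4 genes. Of these 1 fell, beside 4.95% of all tested genes. Npm1 was at 166 and 177 FPKM at E18, 135 and 123 at P5, then 67.6 and 71.7 in Adult. No age overlapped another. The P5 libraries were 1.33-fold lower than those of E18 (limma adjusted p = 0.0517, not called), and Adult was 1.85-fold lower than P5 (log2 change −0.88 ± 0.10 SE, limma adjusted p = 0.00057). Sequences shared with other genes, pseudogenes included, made up 45.5% of the 31-base words of its main isoform, so its values may hold reads of copies. Mybbp1a, a nucleolar protein that binds transcription factors, took another course. It was at 19.1 and 16.7 FPKM at E18, 10.3 and 10.5 at P5, then 12.7 and 11.1 in Adult. Both P5 libraries were lowest, and Adult lay between the other ages. It fell from E18 to P5 by 0.73 on the log2 scale (SE 0.13, limma adjusted p = 0.0253), a call lost without any 1 of the 6 libraries.

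Nolc1, a chaperone of snoRNPs, was at 20.3 and 21.4 FPKM at E18, 14.6 and 16.7 at P5, then 11.7 and 10.9 in Adult. Its ages did not overlap. It fell from P5 to Adult by 0.43 (limma adjusted p = 0.0208), which held only without P5 replicate a, and from E18 to Adult by 0.83 (limma adjusted p = 0.00149), which held in all 6 fits that left out a library. Ncl (nucleolin, an RNA-binding organizer of the nucleolus) was at 32.3 and 32.8 FPKM at E18, 19.8 and 25.4 at P5, then 22.8 and 21.4 in Adult. It was lower in Adult than at E18 (log2 change −0.54, limma adjusted p = 0.0156, lost without any 1 of the 4 libraries of these ages), and P5 and Adult overlapped. The call was also lost when only isoforms equal to an annotated transcript were summed. The protein-coding isoform of Ncl went the other way, from 5.89 and 5.45 FPKM at E18 to 11.9 and 12.9 in Adult. The fall was therefore in the sum of its other isoforms.

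**Figure D2:**
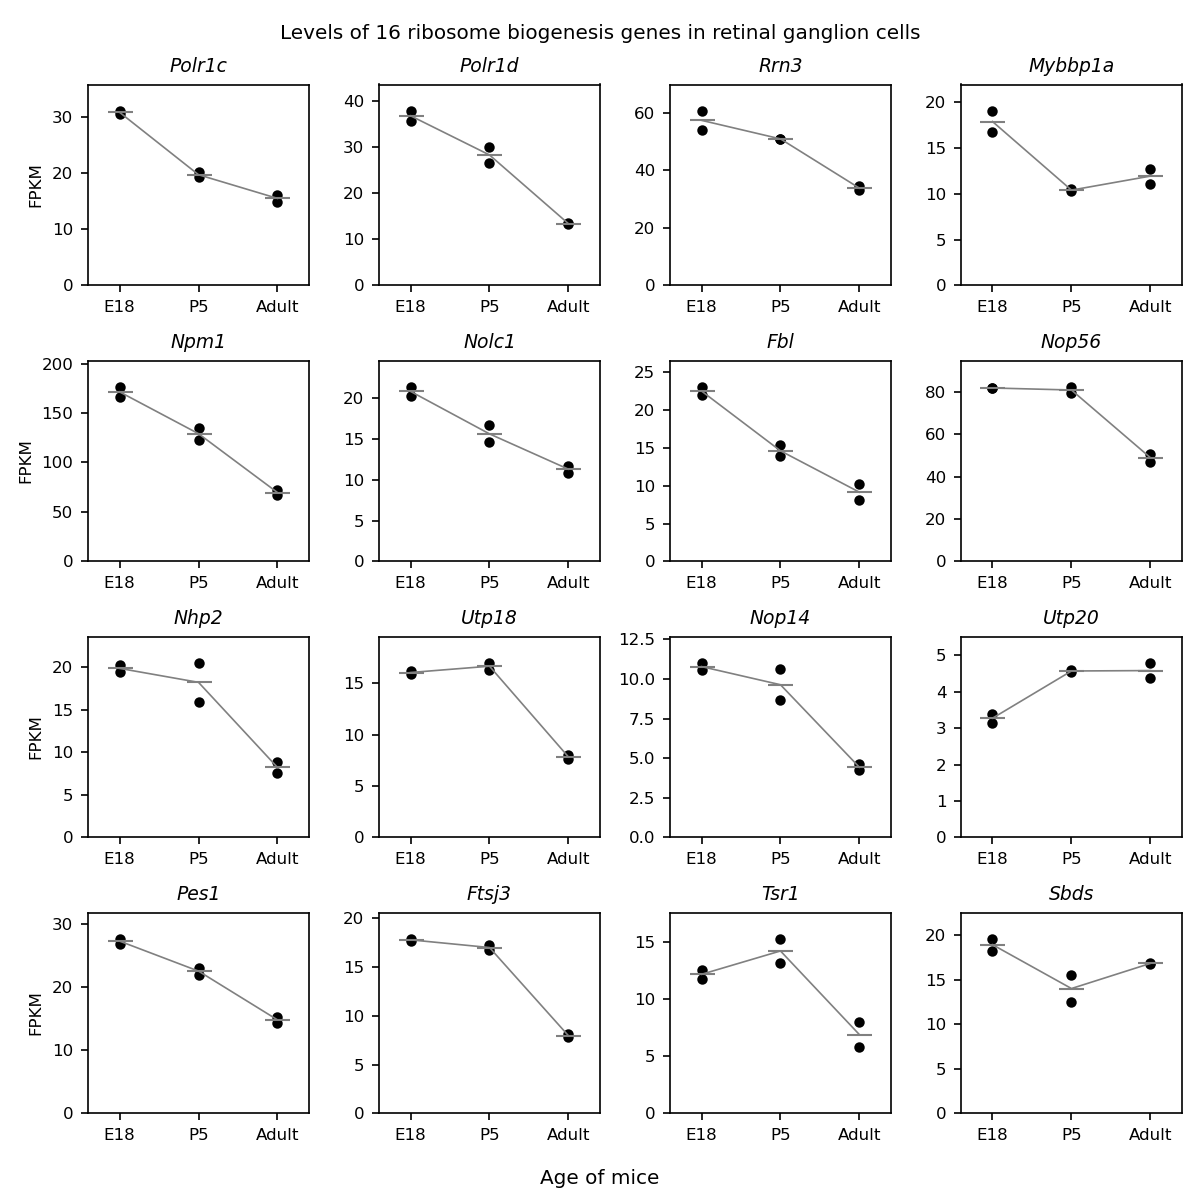
FPKM of 16 of the 45 genes in each of the 6 libraries (points) by age, with the mean of the 2 libraries of an age (dashes joined by lines) and every axis starting at 0. Utp18, Ftsj3 and Nop56 are level from E18 to P5 and lower in Adult, Polr1c and Fbl are lower at each later age, and Mybbp1a and Sbds are lowest at P5.

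The listed core proteins of box C/D particles all fell from P5 to Adult, and those of box H/ACA particles split. Of 8 snoRNP genes, 0 were called from E18 to P5 and 5 fell from P5 to Adult, beside 33.7% of all tested genes. The median log2 difference from P5 to Adult was −0.67 over the 8. Box C/D particles carry the methyltransferase fibrillarin (Fbl) on a scaffold of Nop56 and Nop58. Fbl was at 21.9 and 23.0 FPKM at E18, 15.3 and 13.9 at P5, then 10.2 and 8.05 in Adult, with no overlap between ages. It was 1.54-fold lower at P5 than at E18 (limma adjusted p = 0.0506, not called) and fell 1.60-fold from P5 to Adult (log2 change −0.63 ± 0.14 SE, limma adjusted p = 0.00958). Of the 31-base words of its main isoform, 79.0% occurred in other genes, the highest share of any member. Nop56 was at 81.6 and 81.8 FPKM at E18, 79.2 and 82.3 at P5, then 50.8 and 46.9 in Adult. Its E18 and P5 libraries overlapped, and it fell from P5 to Adult by 0.71 (SE 0.09, limma adjusted p = 0.00107). Nop58 fell by 0.85 (limma adjusted p = 0.00299), from 33.7 and 35.6 FPKM at P5 to 21.5 and 16.4 in Adult. Rrp9, which is specific to the U3 particle, was at 11.1 to 15.1 FPKM in all libraries and was not called.

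In box H/ACA particles, Nhp2 and Nop10 fell while the pseudouridine synthase Dkc1 did not. Nhp2 was at 20.2 and 19.4 FPKM at E18, 20.5 and 15.9 at P5, then 8.86 and 7.57 in Adult. Nop10 was at 36.3 and 40.2 FPKM at E18, 50.5 and 35.8 at P5, then 18.2 and 20.0 in Adult. For both, E18 and P5 overlapped and Adult lay below. They were 2.22-fold and 2.26-fold lower in Adult than at P5, the largest falls among the members (log2 changes −1.05 ± 0.15 and −1.11 ± 0.17 SE, limma adjusted p = 0.00171 and 0.00218). Dkc1 was at 11.3 and 8.57 FPKM at E18, 6.17 and 6.88 at P5, then 8.24 and 10.6 in Adult. Its P5 libraries were the lowest. The difference from P5 to Adult, 0.46 log2 units with a 95% interval of 0.02 to 0.91, did not pass (limma adjusted p = 0.0701) and was −0.22 by TPM. Gar1, the remaining core protein, was at 3.78 to 6.97 FPKM with overlapping ages.

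Of 10 processome genes, 0 were called from E18 to P5 and 5 fell from P5 to Adult, beside 33.7% of all tested genes. The median from P5 to Adult was −0.32 log2 units over the 10. Utp18, a WD-repeat protein of the UtpB complex, was at 15.9 and 16.2 FPKM at E18, 17.0 and 16.3 at P5, then 8.01 and 7.67 in Adult. The 4 younger libraries lay close together, and both Adult libraries were far below them. It was 2.13-fold lower in Adult than at P5 (log2 change −1.0 ± 0.11 SE, limma adjusted p = 0.000515). Nop14, which is needed for small subunit assembly, was at 10.5 and 11.03 FPKM at E18, 8.66 and 10.6 at P5, then 4.24 and 4.62 in Adult. It was 2.18-fold lower in Adult than at P5 (log2 change −0.97, limma adjusted p = 0.00177). Wdr43 and Utp15 fell by 0.59 and 0.58 (limma adjusted p = 0.0113 and 0.00871), and the Wdr43 call was lost without Adult replicate 2. Bms1, a GTPase, fell by 0.37 (limma adjusted p = 0.0407), a call that held only without P5 replicate a.

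The other 5 processome genes were not called from P5 to Adult. Wdr75, the most abundant processome gene, was at 21.8 FPKM in both E18 libraries, 19.0 and 20.7 at P5, then 24.3 and 15.9 in Adult. The Adult libraries lay on either side of the younger ones. Utp3, another processome protein, was at 16.7 and 17.1 FPKM at E18, 11.99 and 14.8 at P5, then 12.7 and 9.23 in Adult. It was lower in Adult than at E18 (log2 change −0.59, limma adjusted p = 0.027), which was lost without either E18 library or Adult replicate 2. Utp20 was at 3.40 and 3.14 FPKM at E18, 4.60 and 4.54 at P5, then 4.36 and 4.80 in Adult, both later ages above E18 and called in neither comparison. Utp4 and Heatr1 were between 5.86 and 10.1 FPKM in all libraries and were called in none.

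Large subunit assembly in the nucleolus had 0 of 10 genes called from E18 to P5 and 8 in the next interval, to Adult. In that interval 33.7% of all tested genes fell. Its median was 0.04 log2 units from E18 to P5 and −0.56 from P5 to Adult. Ftsj3, a methyltransferase of the large subunit precursor, was at 17.7 and 17.9 FPKM at E18, 17.2 and 16.8 at P5, then 7.79 and 8.13 in Adult. It was 2.13-fold lower in Adult than at P5 (log2 change −1.01 ± 0.11 SE, limma adjusted p = 0.000478). Nop2, another methyltransferase, was at 15.1 and 14.9 FPKM at E18, 15.3 and 16.1 at P5, then 9.19 and 7.64 in Adult. It was 1.87-fold lower (log2 change −0.83 ± 0.13 SE, limma adjusted p = 0.00202). In both genes the younger libraries lay close together, and Adult stood below. Nop16, an assembly factor, fell by 0.81 (limma adjusted p = 0.00245), from 15.1 and 12.9 FPKM at P5 to 7.20 and 7.88 in Adult.

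The PeBoW complex, which processes the large subunit precursor, consists of Pes1, Bop1 and Wdr12. Pes1 was at 27.6 and 26.9 FPKM at E18, 22.0 and 23.0 at P5, then 15.2 and 14.3 in Adult. Its ages did not overlap, and it fell from P5 to Adult by 0.57 (SE 0.10, limma adjusted p = 0.00375). Wdr12 fell by 0.60 (limma adjusted p = 0.0128), a call lost without P5 replicate a or either Adult library. Bop1 was not called from P5 to Adult and was lower in Adult than at E18 (log2 change −0.56, limma adjusted p = 0.0122, lost without either E18 library or Adult replicate 2). Rrp1 was at 91.9 and 104 FPKM at E18, 113 and 115 at P5, then 74.8 and 80.4 in Adult. Gnl2, a GTPase of late nucleolar particles, was at 39.6 and 39.3 FPKM at E18, 47.6 and 46.0 at P5, then 34.7 and 31.6 in Adult. Both genes had their highest libraries at P5. They fell from P5 to Adult by 0.54 and 0.49 (limma adjusted p = 0.00461 and 0.00617). Gnl3 (nucleostemin, a GTPase also known from stem cells) fell by 0.53 (limma adjusted p = 0.00749), and Rrs1, which recruits the 5S particle, was at 5.42 to 6.89 FPKM at every age.

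Export and late maturation had 0 of 7 genes called from E18 to P5 and 3 in the next interval. The latter share, 42.9%, was near the 33.7% of all tested genes that fell. The medians of these intervals were −0.24 and −0.31 log2 units. Tsr1, which holds the small pre-subunit in an inactive state, was at 12.6 and 11.8 FPKM at E18, 13.2 and 15.3 at P5, then 8.01 and 5.81 in Adult. It was 2.06-fold lower in Adult than at P5 (log2 change −0.96 ± 0.17 SE, limma adjusted p = 0.00365). Of its exonic bases, 32.3% are overlapped by Srr on the opposite strand, and the strandedness of the counting is not given, so its reads cannot be told apart from those of Srr there. Nmd3, the export adaptor of the large subunit, was at 22.9 and 18.9 FPKM at E18, 16.5 and 18.7 at P5, then 13.4 and 12.2 in Adult. It fell from P5 to Adult by 0.43 (limma adjusted p = 0.0366), a call lost in all 6 fits that left out a library. Isoforms annotated as protein-coding held only 10.8% to 24.9% of its FPKM across the libraries. They summed to 1.77 and 3.17 FPKM at P5 and 2.37 and 3.03 in Adult, so the fall was in the sum of its other isoforms. Efl1 and Sbds act together to release the anti-association factor eIF6 in the last step of large subunit maturation. Efl1 was at 8.81 and 9.24 FPKM at E18, 7.58 and 6.97 at P5, then 4.75 and 5.37 in Adult, and fell from P5 to Adult by 0.45 (limma adjusted p = 0.0254, held only without P5 replicate b or Adult replicate 2). Sbds was at 18.3 and 19.6 FPKM at E18, 12.5 and 15.5 at P5, then 16.8 and 16.9 in Adult. Its Adult libraries lay between the other ages and it was called in no comparison. Nob1, the nuclease that makes the final cut of the small subunit RNA, was lower in Adult than at E18 (log2 change −0.70, limma adjusted p = 0.0279, lost without any 1 of the 4 libraries of these ages). Rrp12, the export factor of both subunits, was at 3.92 to 5.39 FPKM. Ltv1, an assembly factor of the small subunit head, was at 8.36 and 9.07 FPKM at E18, 10.3 and 5.93 at P5, then 7.28 and 6.62 in Adult. Both were called in no comparison, and the P5 libraries of Ltv1 lay on either side of all others. Differences between the 6 roles were not tested.

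The timing was tested directly as the change from P5 to Adult minus the change from E18 to P5, a contrast in which the P5 libraries enter both terms. This difference was called below 0 for 12 members and above 0 for 1, where 22.4% of all tested genes were below and 16.1% above, so the share below (26.7%) was near the background. The 12 were Polr1d, Nop56, Nhp2, Nop10, Utp18, Nop14, Ftsj3, Nop2, Nop16, Rrp1, Gnl2 and Tsr1, of which 5 belong to large subunit assembly, a share that was not tested. Utp18 had a difference of −1.05 ± 0.19 log2 units (SE, limma adjusted p = 0.00771) and was the only call that held in all 6 fits that left out a library. Nop10 had the lowest value at −1.27 ± 0.30 (limma adjusted p = 0.0199), lost in 5 of those fits. Mybbp1a was the gene above 0, at 0.90 ± 0.22 (limma adjusted p = 0.0221), which held only without Adult replicate 2. The count of 13 became 1 or 3 when E18 replicate 1 or 2 was removed, 4 when P5 replicate a was, and 9 for each of the other 3 libraries. By TPM, 34 members and 49.6% of all tested genes were below 0, and 0 members above.

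Ribosomal protein mRNAs, the partners of these factors in the finished ribosome, were the closest comparison. Of 39 tested genes for cytosolic ribosomal proteins, 29 fell from E18 to P5 and 39 from P5 to Adult, beside 4.95% and 33.7% of all tested genes. Their medians were −0.50 and −1.20 log2 units, beside −0.12 and −0.45 for the biogenesis genes. The count of 29 depended on scaling. By TPM, 13 ribosomal protein genes fell from E18 to P5 (median −0.37), beside 3.24% of all tested genes. Under quantile normalization 12 did (median −0.38), beside 3.53%. From P5 to Adult, 39 fell by TPM and 37 under quantile normalization, beside 59.8% and 31.7% of all tested genes. Summed over the 45 members, levels were 1119 and 1148 FPKM at E18, 1032 and 1041 at P5, then 714 and 686 in Adult. The ribosomal protein sum was 13520 and 13500 FPKM at E18, 9634 and 9570 at P5, then 4394 and 4082 in Adult. Both sums were ordered E18, P5, Adult without overlap. The 39 ribosomal protein genes came from a list of 40 that does not cover the whole class, and Rpl13 was not in the table. For every 100 FPKM of mRNA of these 39 genes, the 45 members had 8.28 and 8.50 FPKM at E18, 10.7 and 10.9 at P5, then 16.3 and 16.8 in Adult. This ratio lies within a library and does not depend on its scaling, but its size depends on which genes were listed. It is given as a description, with no test.

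**Figure D3:**
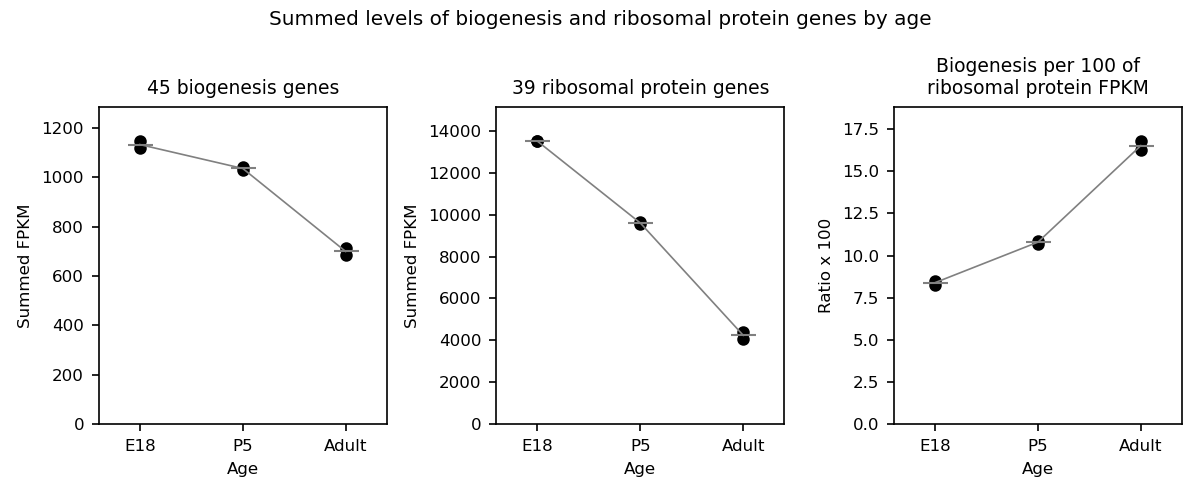
Summed FPKM of the 45 biogenesis genes (left), of 39 ribosomal protein genes (middle) and the first per 100 of the second (right), in each of the 6 libraries (points) by age, with the mean of the 2 libraries of an age (dashes joined by lines). Both sums are lowest in Adult, and the ratio is highest there, at 16.3 and 16.8.

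A list of 110 further tested genes of ribosome biogenesis, chosen by function, was set beside the 45. From E18 to P5, 1 rose and 2 fell, beside 5.52% and 4.95% of all tested genes. In the next interval, to Adult, 52 fell and 9 rose, with a median of −0.35 log2 units, beside 33.7% and 26.2% of all tested genes. From E18 to Adult 61 fell and 7 rose, beside 34.4% and 25.3%. The 9 that rose from P5 to Adult did so by 0.38 to 1.18, and the 3 named next had the smallest p in that comparison. Nsa2, a factor of the nucleolar large subunit particle, was at 41.4 and 41.7 FPKM at E18, 36.7 and 32.2 at P5, then 8.76 and 7.70 in Adult, and it fell from P5 to Adult by 1.94 on the log2 scale (limma adjusted p = 8.3e-05). Pih1d1, a member of the R2TP chaperone complex that assembles box C/D particles, fell by 1.66 (limma adjusted p = 0.000341), from 43.4 and 32.0 FPKM at P5 to 11.3 and 10.9. C1d, a cofactor of the nuclear RNA exosome, fell by 1.10 (limma adjusted p = 0.000385), from 77.8 and 72.0 FPKM at P5 to 36.1 and 32.8. All 3 were far below their younger levels in both Adult libraries. Pno1, which binds the small pre-subunit, rose from E18 to P5 by 0.71 (limma adjusted p = 0.0234), from 10.03 and 10.4 to 18.2 and 16.6 FPKM, and fell back to 9.67 and 8.76 in Adult. Imp4 (of the U3 processome) and Ddx54 (a helicase of the large subunit) fell from E18 to P5 by 0.79 and 0.62 (limma adjusted p = 0.0371 and 0.0484). These 3 calls from E18 to P5 were lost without any 1 library. By group, calls below 0 from P5 to Adult were 5 of 9 for other RNA polymerase I genes, 5 of 10 for other snoRNP genes, 12 of 30 for other processome genes, 15 of 34 for other large subunit genes, 9 of 14 for other export genes and 6 of 13 for exosome genes. The shares of the processome and large subunit groups (40% and 44.1%) lay nearest to the 33.7% of all tested genes. Those that rose were 4 large subunit, 2 export, 2 exosome and 1 snoRNP gene.

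Myc proteins bind the E-box and are known to drive nucleolar genes in growing cells, and Mxd, Mnt, Mxi1 and Mga proteins share their partner Max. Of 11 genes of this network, 4 rose and 5 fell from P5 to Adult, where 26.2% of all tested genes rose and 33.7% fell. No test set these shares against that background. Myc was at 10.5 and 11.7 FPKM at E18, 6.55 and 6.89 at P5, then 0.343 and 0.276 in Adult. It fell by 0.65 from E18 to P5 and by 2.56 from P5 to Adult (limma adjusted p = 0.041 and 6.7e-05). Mycn was at 39.2 and 36.4 FPKM at E18, 29.4 and 32.3 at P5, then 6.33 and 7.86 in Adult (log2 change from P5 −1.98, limma adjusted p = 0.000109), and Mycl fell by 1.47 (limma adjusted p = 0.0037). Both Adult libraries were lowest for all 3 genes. Mlx, a relative of Max, and Mxd3 fell by 0.37 and 0.70 from P5 to Adult (limma adjusted p = 0.0281 and 0.039). Mxi1 was at 13.3 and 13.9 FPKM at E18, 5.05 and 6.57 at P5, then 17.8 and 19.2 in Adult, a fall of 1.11 and then a rise of 1.52 (limma adjusted p = 0.0132 and 0.000317). Mnt rose from P5 to Adult by 0.83 after a fall of 0.80 from E18 to P5 (limma adjusted p = 0.00899 and 0.0455). Mga, the most abundant of the network, and Mxd1 rose from P5 to Adult by 0.73 and 0.65 as deposited (limma adjusted p = 0.0025 and 0.0151), and their differences were −0.0017 and −0.044 by TPM. That sign change leaves their direction dependent on the scaling. Of these calls, Myc and Mnt from E18 to P5 were lost without any 1 library, and Mxi1 there without either E18 library or P5 replicate a. For Adult against P5, Mlx held only without P5 replicate b, and Mxd3 only without P5 replicate b or Adult replicate 2. Mnt was lost there without Adult replicate 2 and Mxd1 without P5 replicate a or Adult replicate 2. The summed levels of other cell types' markers changed in the same comparison, and their part was not tested.

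Below the gene sums, isoforms of some members moved apart. The table held 189 isoforms of the members, of which 136 had a mean of at least 1 FPKM and 33 members had more than 1 such isoform. In a fit over all 34941 isoforms that passed the same filter, 1 member isoform fell from E18 to P5 (0.824% of all tested isoforms fell). From P5 to Adult 40 fell and 7 rose, beside 24.1% and 19.2% of all tested isoforms, and from E18 to Adult 51 fell and 4 rose, beside 26.8% and 17.9%. In GENCODE M21, 71 of the 189 were protein-coding, 67 retained an intron, 19 were processed transcripts, 8 were targets of nonsense-mediated decay and 24 were unannotated variants. Protein-coding isoforms held 74.2% to 79.1% of the members' summed FPKM in every library and intron-retaining ones 11.2% to 14.8%. The coding share differed between members. Across the libraries it was 5.25% to 33.2% for Gar1, 10.8% to 24.9% for Nmd3 and 17.2% to 27.4% for Polr1a. For Gnl3 it was 27.9% to 46.3% and for Wdr75 35.0% to 51.5%, where members such as Nop2 stood at 100%. Isoform FPKM are estimates that divide shared reads, so values of near-identical isoforms are less certain than their sums.

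Ubtf had isoforms called in opposite directions. Its 3013-base isoform was at 11.5 and 9.81 FPKM at E18, 11.4 and 14.5 at P5, then 1.96 and 0.0296 in Adult (log2 change from P5 −2.99, limma adjusted p = 0.00497). Its 3258-base isoform was listed at 0 and 0.564 FPKM at E18, at 0 in both P5 libraries, and at 10.3 and 11.8 FPKM in Adult (log2 change 3.59, limma adjusted p = 0.000465). Both isoforms have a coding length of 727 codons. A 4580-base isoform of the same coding length fell by 2.41 (limma adjusted p = 0.0049) and a 4692-base isoform of 764 codons rose by 0.95 (limma adjusted p = 0.00736, not called by TPM). The 764-codon form is UBF1, the activator of RNA polymerase I, and the shorter form is the splice variant UBF2. Summed by coding length, 764-codon isoforms made up 54.4% and 57.3% of Ubtf FPKM at E18, 42.9% and 39.1% at P5, then 54.6% and 55.8% in Adult. The P5 libraries had the lowest share.

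Ncl was the second such gene. Its 8202-base protein-coding isoform was at 5.89 and 5.45 FPKM at E18, 6.12 and 8.82 at P5, then 11.9 and 12.9 in Adult, and rose from P5 to Adult by 0.68 (limma adjusted p = 0.0343; −0.01 by TPM). Its 3072-base isoform, annotated as retaining an intron, fell by 0.98 (limma adjusted p = 0.0181), from 8.84 and 11.5 FPKM to 5.62 and 3.79. Over the 6 fits without 1 library, the 8202-base call held only without P5 replicate b, and the 3072-base call was lost without P5 replicate b or Adult replicate 2. The coding isoform held 18.3% and 16.6% of Ncl FPKM at E18, 30.9% and 34.7% at P5, then 52.1% and 60.2% in Adult. An unannotated 8533-base variant of Ncl was the only member isoform called from E18 to P5, from 5.31 and 6.22 FPKM to 0.574 and 1.02 (log2 change −1.92, limma adjusted p = 0.0321). It was lost without any 1 library. The gene sum of Ncl, in which P5 and Adult overlapped, combined these opposite movements.

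**Figure D4:**
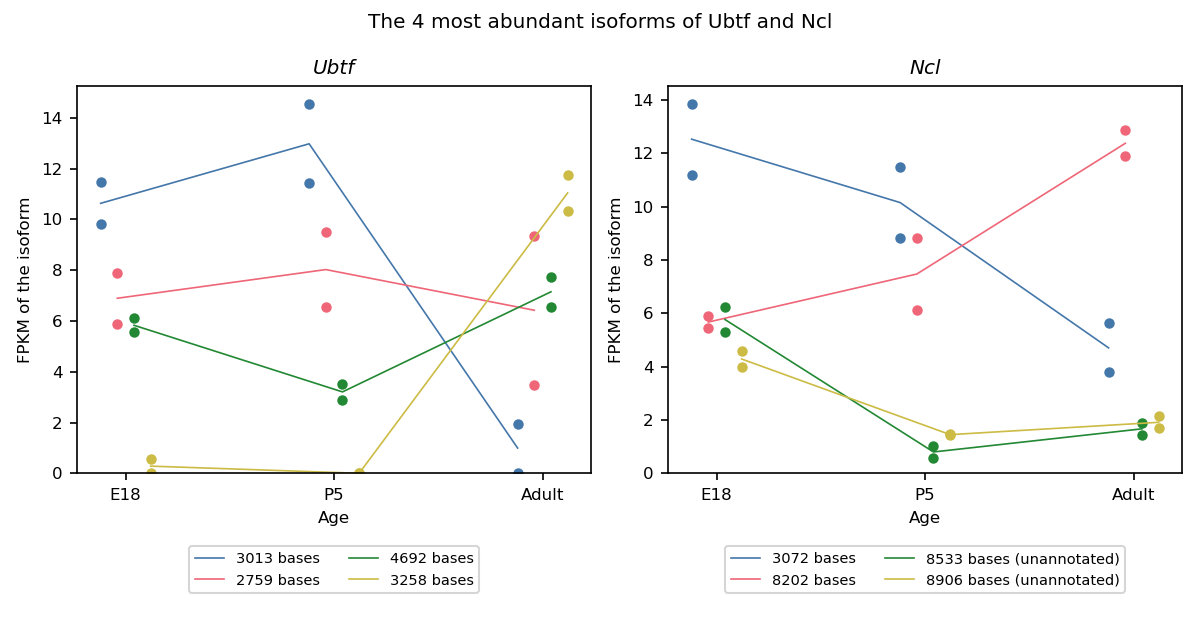
FPKM of the 4 most abundant isoforms of Ubtf (left) and Ncl (right) in each of the 6 libraries (points, shifted sideways by isoform) by age, with lines through the mean of the 2 libraries; lengths in bases name the isoforms. In Adult the 3013-base isoform of Ubtf is at 1.96 and 0.0296 FPKM where the 3258-base isoform is at 10.3 and 11.8.

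Nop56, Npm1, Rrp1 and Gnl2 also had isoforms called in opposite directions from P5 to Adult. For Nop56 the main 1877-base coding isoform fell by 1.19 (limma adjusted p = 0.000993), from 44.9 and 40.7 FPKM to 18.3 and 18.1, and an unannotated 2361-base variant rose by 0.93 (limma adjusted p = 0.0176), from 3.82 in both P5 libraries to 7.05 and 9.48. For Npm1 the main 1633-base isoform fell by 0.91 (limma adjusted p = 0.00189) and a 1192-base isoform rose by 1.75 (limma adjusted p = 0.00197), from 0 and 0.173 FPKM to 2.83 and 2.48. For Rrp1 the coding isoform fell by 0.40 (limma adjusted p = 0.026), and an isoform annotated as a target of nonsense-mediated decay fell by 1.97 (limma adjusted p = 0.000457), from 18.8 and 19.7 FPKM to 4.29 and 4.06. A 576-base intron-retaining isoform of Rrp1 rose by 0.72 (limma adjusted p = 0.0354). For Gnl2 the coding isoform fell by 0.85 (limma adjusted p = 0.00252), from 29.9 and 31.4 FPKM to 16.6 in both Adult libraries, and a 625-base processed transcript rose by 0.59 (limma adjusted p = 0.0367). The rise in Gnl2 was lost without any 1 library, the calls of the coding and intron-retaining Rrp1 isoforms held only without Adult replicate 2, and the Nop56 rise was lost without either P5 library or Adult replicate 2. In these 4 genes the isoform that rose was a minor one, coding in Npm1, and the main coding isoform fell as the gene sum did.

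Several members also carry snoRNA genes, which are released from introns of their hosts and guide the same modifications. GENCODE M21 places 21 snoRNA genes inside 7 of the members: 5 in Nop56, 4 in Nop58, 3 each in Ncl, Wdr43 and Gnl3, 2 in Tsr1 and 1 in Dkc1. Of these 7 hosts, Nop56, Nop58, Wdr43, Gnl3 and Tsr1 fell from P5 to Adult, and Ncl and Dkc1 were not called. Of the 21, 10 overlap an exon of at least 1 annotated transcript of their host (in Ncl, Nop56, Nop58 and Gnl3). Transcripts that retain an intron are counted there, and these 4 hosts have such transcripts. The other 11 lie in introns of all annotated transcripts. The snoRNAs themselves were not analysed here.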

How the data were processed

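The deposited table held FPKM per isoform, which the authors made by alignment with HISAT2 and quantification with Cufflinks and Cuffdiff on mm10, per the submitters' processing notes; versions and strand settings are not given in the sources used here. The other deposited column used was isoform length in bases, and 10 numeric columns were not used. The depth behind FPKM is unknown. The P5 columns carry no replicate number.

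FPKM were summed per gene symbol. Genes with a mean of at least 1 FPKM were fitted together on log2(FPKM + 1), which understates changes of low genes, with limma 3.58.1 (R 4.3.3; lmFit, eBayes with trend) over all 6 libraries, with Benjamini-Hochberg adjustment and a threshold of 0.05. The fit was tested on simulated data. Isoforms were fitted likewise. Annotation came from GENCODE M21 (GRCm38, the same assembly as mm10). Members and lists were chosen with earlier results of these data known. Every member is accounted for. Named with values in every library were, per role, the 2 members with the smallest p in each interval, the one with the highest mean, and any rising one. Also named were, of the other pathway lists, the 3 genes with the smallest p per interval; of the Myc network, the highest and those called; and members whose isoforms were called in opposite directions or differed most. Alternatives were another pseudocount, filter, scaling, model and each library left out. One marker gene is not reported here.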

Additional observations from a re-analysis of the deposited data

How the results depend on the processing

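From E18 to P5, calls rested on few libraries. Genes called numbered 1507 as fitted, 696 from only the 4 libraries of those ages, and 10 to 642 with 1 library left out. Members called numbered 2, against 4 with a filter at 5 FPKM (Fbl and Npm1 added), 1 from 4 libraries and 0 to 1 with 1 library left out. Isoforms called numbered 569, against 331 with a pseudocount of 0.1, 1065 by TPM and 3 to 18 with 1 library left out. From P5 to Adult, members called numbered 28, 44 by TPM and 24 lower with 1 higher (Sbds) under quantile normalization. From E18 to Adult they numbered 31, with 18 to 31 as 1 library was left out, and isoforms 15611 with 7843 to 15009. For the change in the second interval minus the first, members numbered 13, 34 by TPM and 1 to 9 with 1 library left out, and genes 5543 with 3137 to 5291.

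Among the 123 gene and isoform changes examined, signs turned in these cases. By TPM, the log2 differences from P5 to Adult were −0.0017 for Mga, −0.044 for Mxd1, −0.22 for Dkc1, −0.0057 for the 8202-base Ncl isoform and −0.0062 for the 625-base Gnl2 isoform, and that of Mxi1 from E18 to Adult was −0.18. Under quantile normalization they were 0.21 for Ubtf and 0.027 for the coding Rrp1 isoform from P5 to Adult, and 0.013 for Rrp1 from E18 to Adult. With 1 library left out, Ubtf ranged from −0.25 without P5 replicate a to 0.19 without P5 replicate b, and was 0.03 without Adult replicate 2. The cause of these shifts was not tested. Over these changes under the alternatives, 1480 values kept their direction and side of the threshold, 274 no longer passed, 1 newly passed and 11 turned sign. Other members that were not called, such as Wdr75 (−0.30 to 0.28 from P5 to Adult), also changed sign with 1 library left out.

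A fit with the replicate number as a block was possible for Adult against E18 and called 29 members and 8056 genes, against 31 and 8588. Differences between replicates 1 and 2 across genes were not correlated between E18 and Adult (r = 0.02 across 14390 genes). This compares a single difference per age, so whether same-numbered libraries share a batch or preparation was not tested. Depth is unknown, and 2 libraries per age limit precision.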
